A study of Mus musculus with 89 samples.

Results

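The genes of the guanylin axis and of intestinal ion transport were followed along the crypt-villus axis and across cell types of the mouse jejunum. The set was given by name and not by measured values. It holds 10 genes: Guca2a, Guca2b, Gucy2c, Cftr, Slc12a2, Slc9a3, Slc26a3, Slc26a6, Slc34a2 and Atp1b1. All 10 were present in the clump table, which lists 27538 genes, and all 10 in the single cell table, which lists 23379 genes.

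The transcriptomes of small clumps of attached cells and of dissociated single cells were read with MARS-seq, in which each captured mRNA molecule in a plate well carries a unique molecular identifier (UMI). All samples came from untreated male C57BL/6 mice on regular chow, labelled 3 months of age, apart from 3 plates of single cells of mouse 2 that were labelled 4 months. Clumps were sorted by DNA content. Mice 1 to 5 gave pairs of cells (labelled 4n) on 27 plates, mice 1, 4 and 5 gave clumps of more than 2 cells (above 4n) on 14 plates, and clumps labelled above 2n came from mouse 6 on 4 plates. Single cells came from mice 1 to 4 on 44 plates, some of them gated for Epcam or CD24, so the shares of cell types reflect the sort. Every plate used the same well barcodes by design, so a well was identified by barcode and plate together.

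Guanylin, the product of Guca2a, and uroguanylin, the product of Guca2b, are small peptides that intestinal epithelial cells secrete into the lumen. Both bind the receptor guanylate cyclase C, encoded by Gucy2c, which raises cGMP, favours chloride and bicarbonate secretion through the channel CFTR and slows sodium uptake by the exchanger NHE3, encoded by Slc9a3. Secretion also needs chloride entry at the basolateral side through NKCC1, encoded by Slc12a2, and the sodium gradient set by the Na,K-ATPase, of which Atp1b1 encodes a beta subunit. Slc26a3 and Slc26a6 encode apical anion exchangers, and Slc34a2 encodes an apical sodium-phosphate cotransporter.

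The genes of the peptides are neighbours, and their promoters are shown because the transcripts differed in cell type and zone as described further on. In the GENCODE annotation of GRCm38, Guca2a (ENSMUSG00000023247) lies at chr4:119637704-119639471 on the plus strand and Guca2b (ENSMUSG00000032978) at chr4:119656607-119658954 on the minus strand. They point towards each other, with 17135 bases between their ends. RefSeq promoters, from 250 bases before to 50 after the start of transcription, were matched for 8 of the 10 genes. Those of the peptides are given 5′ to 3′ on the strand of each gene in GRCm38.p6, from chr4:119637482-119637781 and chr4:119658896-119659195, with capitals on a searched motif.
Guca2a: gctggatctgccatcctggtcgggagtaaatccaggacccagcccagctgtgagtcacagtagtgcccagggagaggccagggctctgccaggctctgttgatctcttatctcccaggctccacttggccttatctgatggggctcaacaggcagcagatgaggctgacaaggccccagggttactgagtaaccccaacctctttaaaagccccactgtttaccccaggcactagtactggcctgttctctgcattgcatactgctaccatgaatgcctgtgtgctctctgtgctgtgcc
Guca2b: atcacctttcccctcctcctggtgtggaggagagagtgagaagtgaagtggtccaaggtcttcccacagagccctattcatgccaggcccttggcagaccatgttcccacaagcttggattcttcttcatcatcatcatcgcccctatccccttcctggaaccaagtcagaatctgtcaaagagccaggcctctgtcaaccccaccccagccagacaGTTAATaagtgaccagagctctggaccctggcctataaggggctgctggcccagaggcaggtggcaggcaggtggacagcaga
The hexamers TATAAA and GTTAAT and the hexamers CAAAGT and TTTATG were searched on both strands, and none contains another. Of all 32851 promoters of the same length, 13.6% held TATAAA, 7.10% held GTTAAT, 14.4% held CAAAGT and 11.9% held TTTATG. The Guca2b window held GTTAAT at position -33 from the start of transcription and none of the others. The Guca2a window held none of these letters. Among the other transporters, the Slc26a3 window held TATAAA at -30 and GTTAAT at -94 and -84.

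Depth differed widely between mice and zones. After filtering, 5883 clumps had a zone, of which 3529 were crypt clumps, 1550 mid-villus clumps and 804 tip clumps. Summed per mouse, the clumps held 369045 to 19001409 UMIs for the crypt, 172503 to 2417241 for the mid-villus and 79055 to 816189 for the tip. Levels are given as CPM, the UMI count of the gene relative to all UMIs of the sum and scaled to a fixed total, while log2 changes come from edgeR with TMM scaling and are therefore not the plain ratio of the CPM values. TMM moved the median change of all genes by 0.37 on the log2 scale for tip against crypt clumps, relative to scaling by library size. Genes with adjusted p under 0.05 over all genes tested are called changed.

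Of the 9 genes of the set that passed the filter on low counts in the clumps, 4 rose and 3 fell from the crypt to the villus tip. Over all 7376 genes tested, 22.4% were higher and 30.3% lower at the tip. Guca2a, Guca2b, Slc26a6 and Slc34a2 rose, and Cftr, Slc12a2 and Slc26a3 fell. Gucy2c and Atp1b1 did not pass the test, and Slc9a3 was too low to be tested. From the crypt to the mid-villus, 5 of the 9 rose, where 16.3% of all genes did, and 1 fell, where 23.5% of all genes did. From the mid-villus to the tip none of the 9 rose with edgeR or DESeq2, where 5.71% of all genes did with edgeR, and 3 fell, where 6.17% of all genes did. With the mouse as a block in edgeR, 1 rose and 4 fell. In that comparison 4 of the 9 had an unadjusted p under 0.05 with edgeR. Clumps mix cell types, so a lower value may come from fewer cells of a type or from less RNA per cell, and these cannot be told apart.

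**Figure D1:**
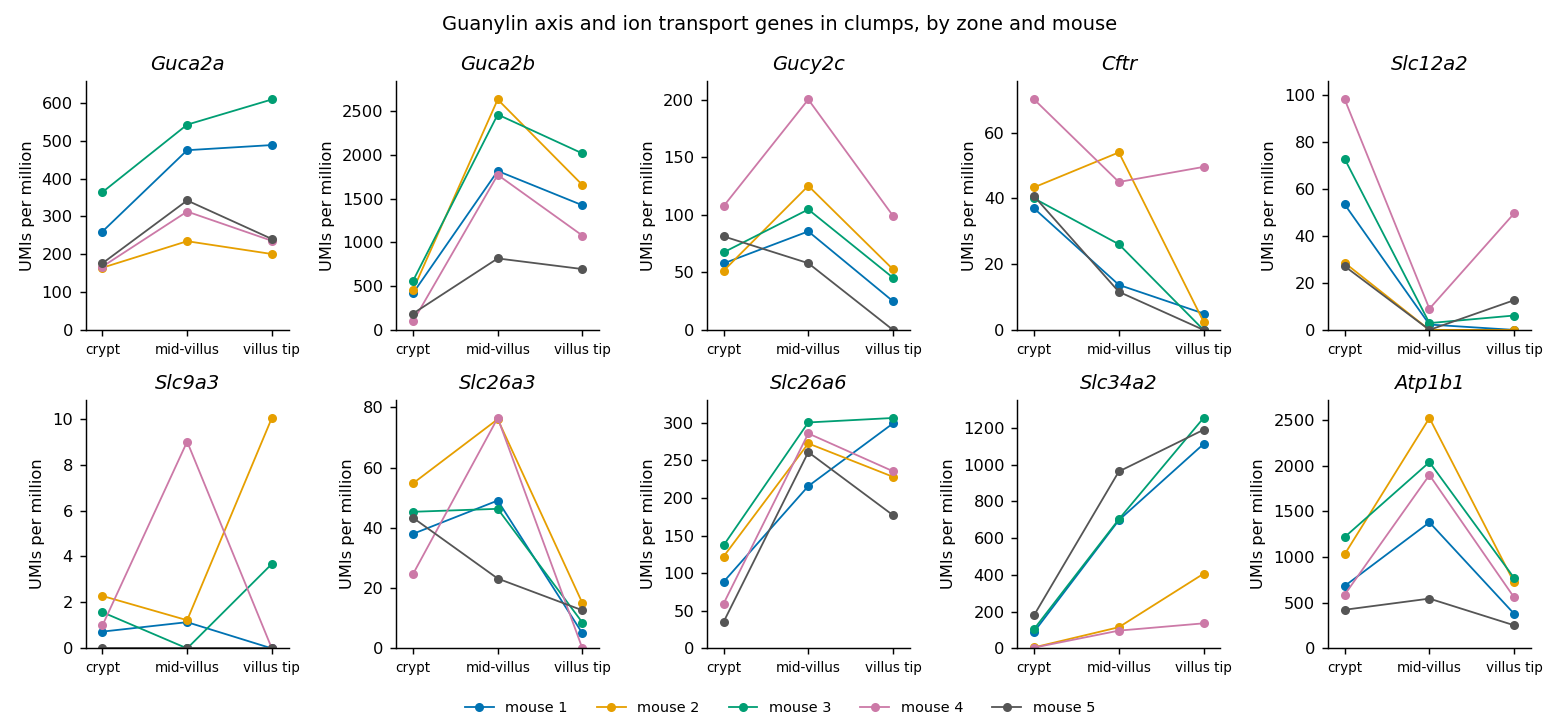
Levels in CPM of each gene of the set in clumps, by zone on the x axis, with a line for each of mice 1 to 5. Guca2b was higher in the mid-villus than in the crypt and the tip in 5 of 5 mice, and in all 5 mice Slc12a2 had its highest value in the crypt.

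The uroguanylin gene Guca2b had the clearest rise of the ligands. In crypt clumps its level was 420, 457, 561, 97.2 and 187 CPM in mice 1 to 5. In mid-villus clumps it was 1817, 2635, 2463, 1773 and 817 CPM, and at the tip 1425, 1657, 2018, 1078 and 696 CPM. Neither villus zone overlapped the crypt, and the mid-villus value was the highest of the 3 zones in 5 of 5 mice. The change was 2.58 ± 0.43 (log2, SE, n = 5 mice) from crypt to mid-villus, with adjusted p = 6.47e-05, and 2.36 ± 0.42 from crypt to tip, with adjusted p = 0.000104. Between mid-villus and tip the fit gave -0.22 ± 0.40 with adjusted p = 0.788. A decline from mid-villus to tip was called under no alternative either (adjusted p 0.372 to 0.924 with edgeR or DESeq2), although the tip had the lower CPM in every mouse. In pairs alone the changes from the crypt were smaller, at 1.70 to the mid-villus (adjusted p = 0.0170) and 1.32 to the tip (0.0447).

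The guanylin gene Guca2a changed less. Crypt clumps held 260, 164, 364, 167 and 176 CPM in mice 1 to 5, mid-villus clumps 475, 234, 542, 313 and 342 CPM, and tip clumps 488, 201, 609, 236 and 240 CPM. Each mouse had more in both villus zones than in its crypt, but the ranges of the zones overlapped. The tip exceeded the crypt by 0.96 ± 0.34 (log2, SE) with adjusted p = 0.0225, and the mid-villus exceeded it by 0.87 ± 0.34 with adjusted p = 0.0463. The tip call was lost with DESeq2 (adjusted p = 0.0508), with its size factors (0.0703), with library size scaling (0.156), without a filter on low counts (0.101), without mouse 1 (0.0654) or mouse 3 (0.0878), and in pairs alone, where the change was 0.20 (0.777). The mid-villus call was lost with DESeq2 (0.0964), its size factors (0.118), library size scaling (0.132), no filter (0.0916), background subtraction (0.0716), mouse 6 added (0.102) and without mouse 1, 3, 4 or 5, and in pairs alone its sign turned, at -0.033 (0.973). The summed goblet markers were 1229, 1056, 2224, 1784 and 1344 CPM in the crypt of mice 1 to 5, 776, 847, 4264, 1478 and 1901 CPM in the mid-villus, and 4471, 1025, 7415, 3384 and 1467 CPM at the tip. They were above the crypt at the tip of every mouse but mouse 2, and in the mid-villus of mice 3 and 5 but not of mice 1, 2 and 4. The other goblet list, the fixed markers that named the cell clusters, summed to 3124 to 6630 CPM in the crypt. It summed to 3320 to 15675 CPM in the mid-villus and 6793 to 27912 CPM at the tip, so its tip lay above its crypt with no overlap. The part of either sum in the change of Guca2a was not tested. In clumps with under 10 UMIs of the Paneth list and under 10 of the goblet list, the tip exceeded the crypt by 1.71 with adjusted p = 0.00103. That cut is a fixed count, and the median depth was 4424 UMIs per crypt clump and 1354 per tip clump. It thus removed crypt clumps at a lower share of such UMIs than tip clumps, so this change does not show a rise free of goblet transcripts.

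The ratio of the transcripts inside each sum does not depend on scaling. Guca2a UMIs per Guca2b UMI were 0.619, 0.360, 0.649, 1.72 and 0.942 for the crypt, 0.261, 0.0890, 0.2202, 0.176 and 0.418 for the mid-villus, and 0.343, 0.121, 0.302, 0.218 and 0.346 for the tip. The crypt ratio was the highest of the 3 zones in 5 of 5 mice, and the highest tip ratio, 0.346, lay below the lowest crypt ratio, 0.360. The log2 ratio was 1.59 lower at the tip, with a two-sided exact permutation p = 0.0079 over 252 splits that treat the sums as independent. Crypt and tip sums come from the same mice, and with the mouse as a block, where values are exchanged only within a mouse, the exact permutation p was 0.0625 over 32 exchanges, which is the smallest p that 5 mice allow, so the paired test could not pass. The mid-villus ratio was 1.86 lower on the log2 scale (exact permutation p = 0.0159, and 0.0625 within mice). Without clumps that held at least 10 UMIs of the Paneth or of the goblet list, the tip ratio was 0.78 lower on the log2 scale. That did not pass (exact permutation p = 0.103). In pairs, with 1 UMI added to both counts, the difference was -1.26 and did not pass either (exact permutation p = 0.103). The summed Paneth markers were 14728, 13.7, 7007, 4866 and 2523 CPM in the crypt of mice 1 to 5 and 404, 15.0, 548, 409 and 25.3 CPM at the tip. They were higher in the crypt in 4 of 5 mice and about level in mouse 2. Their part in the ratio was not tested.

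**Figure D2:**
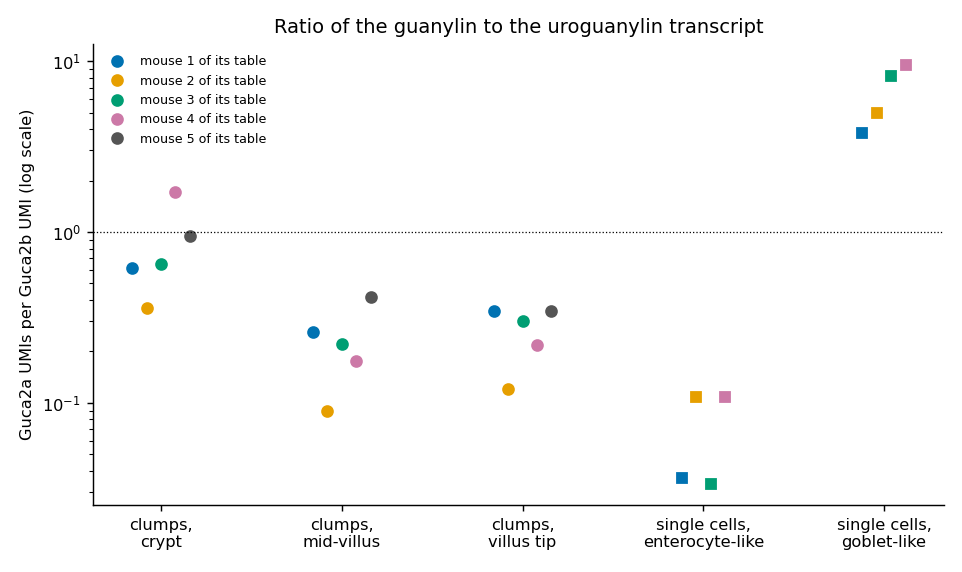
Guca2a UMIs per Guca2b UMI on a log axis, for clumps by zone (circles, mice 1 to 5) and for single enterocyte-like and goblet-like cells (squares, mice 1 to 4 of the cell table). Goblet-like cells ranged from 3.8 to 9.5 and enterocyte-like cells from 0.0333 to 0.109, with no overlap.

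Single cells separated the ligands by cell type. After filtering, 5199 cells were clustered without the genes of the set, giving 2448 enterocyte-like, 211 goblet-like, 245 enteroendocrine-like, 187 tuft-like and 1687 immune-like cells. The goblet-like cells were 45, 80, 72 and 14 in mice 1 to 4, and their leading genes, Zg16, Fcgbp, Clca1, Tff3 and Muc2, are goblet markers. A mixed cluster of 391 cells and 30 unnamed cells were not compared. In the mixed cluster the summed hemoglobin genes were 184448, 79816, 0 and 7.35 CPM in mice 1 to 4, and the summed plasma cell markers 588, 4628, 38098 and 26371 CPM. The immune-like sum of mouse 1 held 19 cells and 209 CPM of the immune markers, against a median of 42154 CPM over the 4 mice, so its name is not borne out there. Doublets were not removed beyond the upper limit on UMIs per cell.

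Guca2a was higher in goblet-like than in enterocyte-like cells. Goblet-like cells held 371, 573, 1302 and 1613 CPM in mice 1 to 4, and enterocyte-like cells 15.99, 82.4, 18.9 and 103 CPM. The groups did not overlap. Goblet-like cells exceeded enterocyte-like cells by 3.12 ± 0.67 (log2, SE, n = 4 mice) with adjusted p = 0.000645. The value of mouse 4, the highest, rested on 38 UMIs in 14 cells. The summed Paneth markers were also higher in the goblet-like sums, at 634, 1690, 3822 and 2887 CPM, than in the enterocyte-like sums, at 43.5, 93.6, 127 and 46.3 CPM, and their part in the difference was not tested. Over the alternatives the adjusted p ranged from 2.57e-06 to 0.00915.

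Guca2b ran the other way. Enterocyte-like cells held 440, 759, 568 and 949 CPM in mice 1 to 4, and goblet-like cells 97.6, 116, 160 and 170 CPM. These groups did not overlap either. The goblet-like level was lower by 3.29 ± 0.76 (log2, SE) with adjusted p = 0.00132, and 1.92e-05 to 0.0260 over the alternatives. Of the 7 genes of the set tested in this comparison, 1 was higher in goblet-like cells, where 6.06% of the 4419 genes tested were, and 4 were lower, where 15% were. TMM and library size scaling differed by 0.83 in the median change of all genes, and Guca2a and Guca2b kept their calls under both.

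In 107 of 211 goblet-like cells, or 50.7% (95% Wilson interval 44.0 to 57.4), at least 1 Guca2a UMI was seen. In enterocyte-like cells it was 10.8% (9.66 to 12.1) and in immune-like cells 0.415%, at median depths of 1991, 2865 and 865 UMIs per cell. For Guca2b the shares were 66.0% (64.1 to 67.9) of enterocyte-like, 22.3% (17.2 to 28.4) of goblet-like and 6.05% of immune-like cells. Thinned to 500 UMIs per cell, which left out 38 enterocyte-like, 6 goblet-like and 325 immune-like cells, Guca2a was seen in 21.5% of goblet-like, 2.66% of enterocyte-like and 0.294% of immune-like cells. Guca2b was then seen in 26.7% of enterocyte-like, 8.29% of goblet-like and 3.30% of immune-like cells. Both shares in the other cell type were thus above that in immune-like cells. These intervals cover counting error only and take cells of all mice together.

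The transcripts were also counted together in each cell. Of the 211 goblet-like cells, 25 held both peptides, 82 Guca2a alone, 22 Guca2b alone and 82 neither. Of the 2448 enterocyte-like cells, 215 held both, 50 Guca2a alone, 1401 Guca2b alone and 782 neither. The ratio of Guca2a to Guca2b UMIs was 3.8, 4.95, 8.16 and 9.5 in the goblet-like cells of mice 1 to 4 and 0.0364, 0.109, 0.0333 and 0.108 in the enterocyte-like cells.

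**Figure D3:**
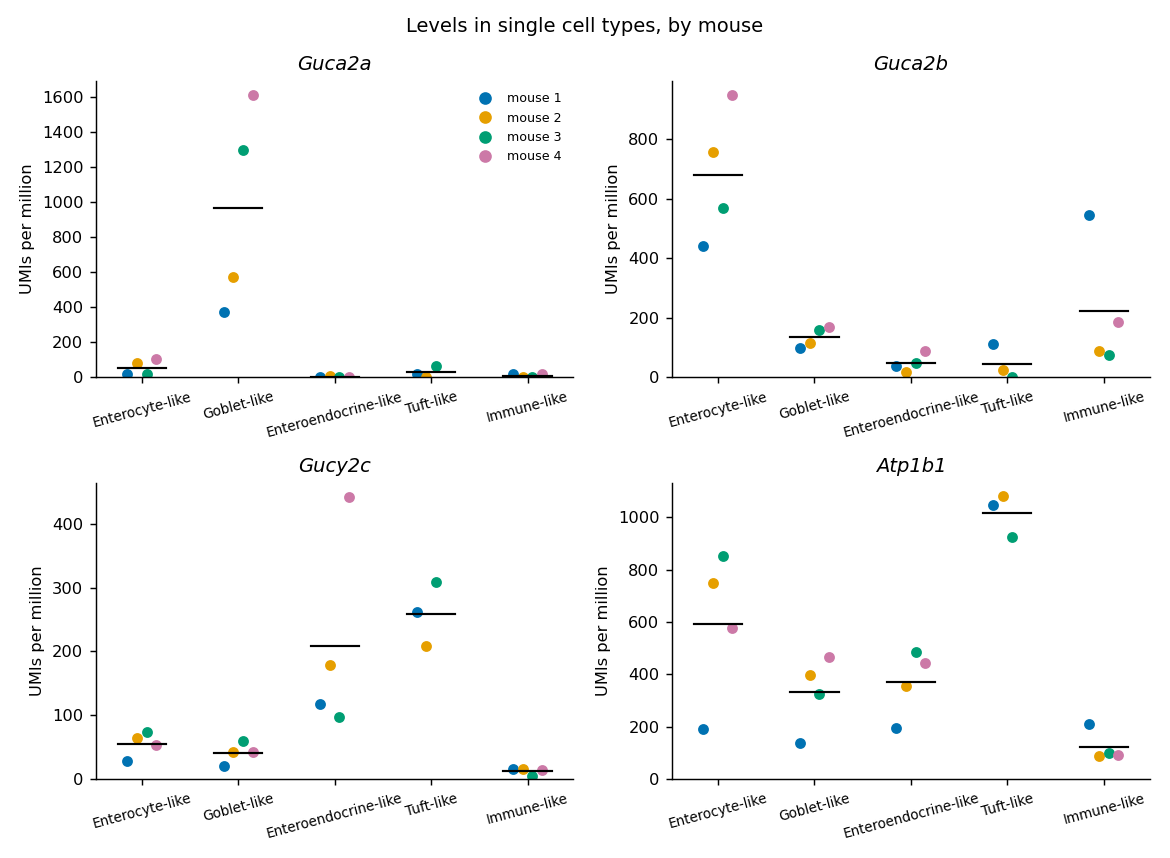
Levels in CPM of Guca2a, Guca2b, Gucy2c and Atp1b1 in 5 single cell types, with a point per mouse and a bar at the mean. Guca2a was 371 to 1613 CPM in goblet-like cells and Guca2b 440 to 949 CPM in enterocyte-like cells, while Gucy2c and Atp1b1 had their highest means in tuft-like or enteroendocrine-like cells.

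Goblet cells inside clumps gave a second measure of the ligands. Clumps rich in goblet transcripts (at least 0.5% and at least 5 UMIs from the goblet list, 484 clumps) were compared with clumps poor in them (under 0.1%, 4404 clumps), with the zone in the model. In the crypt, goblet-rich clumps held 1136, 1139, 1662, 702 and 889 CPM of Guca2a in mice 1 to 5, and goblet-poor clumps 191, 113, 179, 47.8 and 68.7 CPM. In the mid-villus the rich clumps held 769, 827, 1122, 1010 and 781 CPM and the poor clumps 465, 207, 459, 262 and 260 CPM. At the tip, where mouse 4 had too few rich clumps, the rich clumps of mice 1, 2, 3 and 5 held 730, 1084, 570 and 504 CPM, and the poor clumps of mice 1 to 5 held 449, 172, 606, 207 and 206 CPM. Rich and poor clumps did not overlap in the crypt and the mid-villus and overlapped at the tip, where mouse 3 had less Guca2a in its rich clumps. The difference over the zones was 1.93 ± 0.28 (log2, SE) with adjusted p = 5.21e-06.

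Among goblet-poor clumps Guca2a was higher in the villus than in the crypt in 5 of 5 mice. Guca2b did not differ as clearly between the classes. Its difference, rich minus poor, was -0.58 ± 0.28 with adjusted p = 0.361, and with the mouse as a block it was -0.67 with adjusted p = 0.0456. Of the 6 genes of the set tested here 1 was called higher, where 1.82% of the 1867 genes tested were, and none was called lower by edgeR or DESeq2, where 0.107% were with edgeR. An unadjusted p under 0.05 was found for 3 of the 6 with edgeR. With the mouse as a block 4 were called, the added 3 being Guca2b, Atp1b1 and Slc34a2, all lower in goblet-rich clumps.

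**Figure D4:**
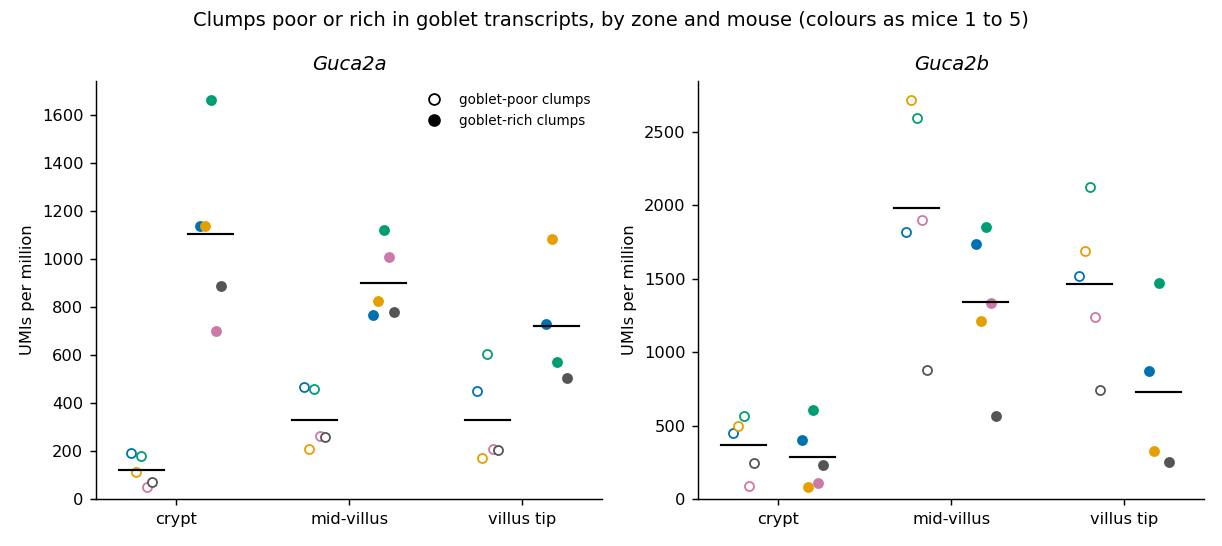
Levels in CPM of Guca2a and Guca2b in clumps by zone, with open points for goblet-poor clumps, filled points for goblet-rich clumps, a colour per mouse and bars at the mean. In the crypt the goblet-rich clumps held 702 to 1662 CPM of Guca2a and the goblet-poor clumps 47.8 to 191 CPM.

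In single enterocyte-like cells placed by the same landmark rule, the ligands and transporters were compared between tip and crypt in the mice of the cell table, which are numbered apart from those of the clumps. The crypt held 4, 73, 153 and 116 cells in mice 1 to 4, so mouse 1 entered the mid-villus and tip groups only. Of the 9 genes of the set tested, 3 rose, where 29.5% of the 4274 genes tested did, and 4 fell, where 29.9% did. Under library size scaling 1 rose and 5 fell, where the median change of all genes was -0.86, against 0.10 with TMM. Guca2b held 379, 188 and 529 CPM in the crypt of mice 2 to 4 and 407, 673, 354 and 781 CPM at the tip of mice 1 to 4. These ranges overlapped, and each of mice 2 to 4 was higher at its tip. The change was 1.51 ± 0.30 (log2, SE) with adjusted p = 0.000367. It was 0.56 with adjusted p = 0.234 under library size scaling, and between these scalings the median change of all genes moved by 0.96.

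Guca2a in the enterocyte-like cells was 46.0, 17.1 and 123 CPM in the crypt and 14.05, 94.0, 12.8 and 91.2 CPM at the tip. These levels overlapped. The change was 0.65 ± 0.66 with adjusted p = 0.410, and 0.71 with adjusted p = 0.0333 with the mouse as a block. Under library size scaling its sign turned, at -0.24.

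The change along the axis was compared between clumps and single enterocyte-like cells by an interaction term. None of the 7432 genes tested passed with edgeR in either direction (0% called higher and 0% lower), while 487 had an unadjusted p under 0.05. DESeq2 called 1 gene higher and 1 lower, and edgeR with the mouse as a block 3 higher and 18 lower, none of them in the set. For Guca2b the difference of the changes was 0.63 (95% interval -0.46 to 1.73) and for Guca2a 0.12 (-1.36 to 1.59). A p that missed the threshold does not show that the changes were alike.

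The receptor gene Gucy2c, on the minus strand at chr6:136697284-136781765, showed no change from crypt to tip in clumps that passed the test. It was 57.8, 51.4, 67.4, 108 and 81.3 CPM in crypt clumps of mice 1 to 5, 85.6, 125, 105, 200 and 58.0 CPM in the mid-villus, and 24.9, 52.6, 45.3, 99.2 and 0 CPM at the tip. The tip was below the mid-villus in 5 of 5 mice. The change from crypt to tip was -0.43 ± 0.41 with adjusted p = 0.407. From mid-villus to tip it was -1.14 ± 0.42 with adjusted p = 0.0797, and -1.02 with adjusted p = 0.00434 with the mouse as a block. That fall was also called with DESeq2 (0.0368), with library size scaling (0.0429), above 1000 UMIs per clump (0.0324) and with mouse 6 added (0.0111). From crypt to mid-villus the change of 0.71 ± 0.36 did not pass (adjusted p = 0.127), and with the block it was 0.77 and passed (0.00183), as it did with mouse 6 added (0.0463) and without mouse 5 (0.0230). In single enterocyte-like cells Gucy2c was 68.998, 62.7 and 41.0 CPM in the crypt of mice 2 to 4 and 23.9, 31.3, 42.6 and 34.1 CPM at the tip of mice 1 to 4, lower at the tip in each of mice 2 to 4. The change there was 0.071 ± 0.32 (log2, SE) with TMM scaling (adjusted p = 0.863), and under library size scaling its sign turned, at -0.88, which passed (0.0491).

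Among single cells, Gucy2c was highest outside the enterocytes. Tuft-like cells held 261, 208 and 308 CPM in mice 1 to 3 and enteroendocrine-like cells 117, 178, 97.1 and 443 CPM in mice 1 to 4. Enterocyte-like cells held 28.0, 64.8, 73.7 and 53.8 CPM, goblet-like cells 19.5, 42.7, 59.9 and 42.5 CPM, and immune-like cells 16.1, 16.1, 4.60 and 14.6 CPM. Tuft-like and enteroendocrine-like levels overlapped each other, as did enterocyte-like and goblet-like levels, and both former types lay above all enterocyte-like values. The tuft-like and enteroendocrine-like cells came mostly from mouse 2, with 158 of 187 and 217 of 245 cells, and the values of the other mice rested on 2 to 14 UMIs. Goblet-like cells differed from enterocyte-like cells by -1.18 ± 0.52 with adjusted p = 0.106, and with cell types set by marker sums by -1.44, which passed (0.0394). A share of 35.3% of tuft-like, 23.7% of enteroendocrine-like and 13.3% of enterocyte-like cells held a Gucy2c UMI, against 1.19% of immune-like cells.

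Slc12a2 and Cftr, the genes of the chloride cotransporter and of the apical chloride channel, had their highest mean levels in the crypt. Slc12a2, on chromosome 18, was 53.4, 28.5, 72.7, 98.1 and 27.1 CPM in crypt clumps of mice 1 to 5, 2.28, 0, 2.90, 9.00 and 0 CPM in the mid-villus, and 0, 0, 6.13, 49.6 and 12.6 CPM at the tip. The mid-villus did not overlap the crypt, whereas the tip did through mouse 4, whose value was 4 UMIs. The change from the crypt was -4.34 ± 0.64 to the mid-villus (adjusted p = 2.03e-05) and -2.75 ± 0.70 to the tip (adjusted p = 0.00254). In enterocyte-like cells the crypt held 16, 36 and 8 UMIs in mice 2 to 4, and the tip 1, 1, 1 and 0 UMIs in mice 1 to 4. Per UMI of the pooled sums the crypt was 77.6-fold higher (95% exact counting interval 25.3 to 387), and over mice 2 to 4 alone 56.8-fold higher (15.1 to 480.0).

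Cftr, at chr6:18170687-18322768, was 36.9, 43.4, 39.99, 70.1 and 40.6 CPM in crypt clumps, 13.7, 54.0, 26.1, 45.0 and 11.6 CPM in the mid-villus, and 4.98, 2.51, 0, 49.6 and 0 CPM at the tip. The tip was below the crypt in 5 of 5 mice, with 1, 1, 0, 4 and 0 UMIs. It fell by 3.06 ± 0.77 (log2, SE) from crypt to tip with adjusted p = 0.00225 and by 2.54 ± 0.81 from mid-villus to tip with adjusted p = 0.0441. The change from crypt to tip was -4.42 to -2.28 when a mouse was left out, and with zones by z-scored landmarks it was -1.12 and no longer called (adjusted p = 0.0533). The fall from the mid-villus was no longer called without mouse 1, 2, 3 or 5, above 1000 UMIs per clump, with z-scored landmarks or without Paneth or goblet clumps. In enterocyte-like cells Cftr was 80.5, 36.1 and 67.0 CPM in the crypt and 1.04, 3.69, 17.0 and 3.65 CPM at the tip, a change of -2.67 ± 0.62 with adjusted p = 0.00131. No crypt value overlapped a tip value.

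The apical exchangers differed among themselves. Slc26a6, at chr9:108853283-108913049, was 88.5, 122, 137, 59.5 and 35.2 CPM in crypt clumps, 216, 272, 300.3, 286 and 261 CPM in the mid-villus and 299, 228, 306, 236 and 177 CPM at the tip. Both villus zones lay above the crypt in every mouse with no overlap. The change was 1.75 ± 0.29 to the mid-villus (adjusted p = 7.2e-05) and 1.84 ± 0.30 to the tip (adjusted p = 3.24e-05). In pairs alone both calls were lost, at 0.72 (adjusted p = 0.230) and 0.92 (0.0861). In single enterocyte-like cells the CPM values overlapped, at 115, 87.5 and 130 in the crypt and 113, 131, 89.5 and 126 at the tip. The TMM change there was 1.02 ± 0.27 with adjusted p = 0.00361, and it was 0.02 under library size scaling.

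Slc26a3, at chr12:31390871-31473917, went the other way at the tip. Crypt clumps held 38.0, 54.8, 45.3, 24.7 and 43.4 CPM, mid-villus clumps 49.1, 76.1, 46.3, 76.5 and 23.2 CPM, and tip clumps 4.98, 15.0, 8.58, 0 and 12.6 CPM, the last from 1, 6, 7, 0 and 1 UMIs. The tip lay below both other zones with no overlap. The tip was lower than the crypt by 1.73 ± 0.45 (log2, SE) with adjusted p = 0.00310, and lower than the mid-villus by 2.28 ± 0.45 with adjusted p = 0.00262. Its rise from crypt to mid-villus was called only with the mouse as a block (0.58, adjusted p = 0.0239) or without mouse 5. In enterocyte-like cells Slc26a3 fell from 46.0, 79.9 and 59.6 CPM in the crypt to 4.16, 18.4, 19.2 and 3.65 CPM at the tip, a change of -1.86 ± 0.53 with adjusted p = 0.00611. When zones were set by z-scored landmarks, the change in clumps from crypt to tip was 0.14 with adjusted p = 0.746, and that from mid-villus to tip was -0.49 with adjusted p = 0.473.

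The phosphate cotransporter Slc34a2, at chr5:53038081-53071664, had the largest fitted rise of the set from crypt to tip. It was 90.7, 5.71, 106, 4.58 and 182 CPM in crypt clumps of mice 1 to 5, 697, 115, 702, 96.7 and 962 CPM in the mid-villus, and 1111, 406, 1253, 136 and 1189 CPM at the tip. The order of the zones was crypt, mid-villus, tip in 5 of 5 mice, and mice 2 and 4 lay far below the others in every zone, so the zones overlapped. The change from crypt to tip was 3.66 ± 0.92 with adjusted p = 0.00239, and to the mid-villus 2.88 ± 0.90 with adjusted p = 0.0142, the latter lost without mouse 1 or 3. The rise from mid-villus to tip was called only with the mouse as a block (1.081, adjusted p = 0.00241). In enterocyte-like cells the crypt held 7, 0 and 11 UMIs in mice 2 to 4 and the tip 560, 154, 49 and 450 UMIs in mice 1 to 4, a change of 4.69 ± 1.04 with adjusted p = 0.00097.

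The sodium-hydrogen exchanger gene Slc9a3, at chr13:74121457-74169442, was near the limit of detection. Clump sums held 0 to 19 UMIs, with ranges of 0 to 2.28 CPM in the crypt and 0 to 10.0 CPM at the tip that overlapped. In enterocyte-like cells it had 0, 1 and 0 UMIs in the crypt of mice 2 to 4 against 45, 6, 3 and 12 UMIs at the tip of mice 1 to 4. Pooled, the tip was 17.0-fold higher with a wide exact counting interval of 2.95 to 682. Mouse 1, which gave 45 of the 66 tip UMIs, had no crypt sum, and over mice 2 to 4 the tip was 11.1-fold higher (1.78 to 459). Without mouse 3 the crypt held 0 UMIs and the tip was at least 2.83-fold higher, with 3 UMIs given to the crypt. Without a filter on low counts the change passed, with adjusted p = 1.24e-06.

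Atp1b1, on the minus strand at chr1:164437109-164458355, peaked in the mid-villus. It was 683, 1031, 1218, 589 and 423 CPM in crypt clumps, 1379, 2521, 2037, 1897 and 545 CPM in the mid-villus and 379, 722, 771, 558 and 253 CPM at the tip. The mid-villus was the highest zone in 5 of 5 mice, although the ranges overlapped because mouse 5 was low throughout. The change was 1.18 ± 0.37 from crypt to mid-villus (adjusted p = 0.0155) and -1.37 ± 0.38 from mid-villus to tip (adjusted p = 0.0225), while crypt and tip differed by -0.19 ± 0.37 (0.703). The mid-villus rise was lost in pairs alone (0.61, adjusted p = 0.515), with library size scaling (0.0502) and without mouse 4. The fall to the tip was lost in pairs (0.101), with z-scored landmarks (0.157) and without mouse 1, 3 or 4. In enterocyte-like cells the tip, at 155, 306, 298 and 189 CPM, lay below the crypt, at 719, 742 and 901 CPM, with a change of -0.82 ± 0.31 and adjusted p = 0.0291. That call was lost without mouse 2 or 4 and without a filter on low counts (0.0570).

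**Figure D5:**
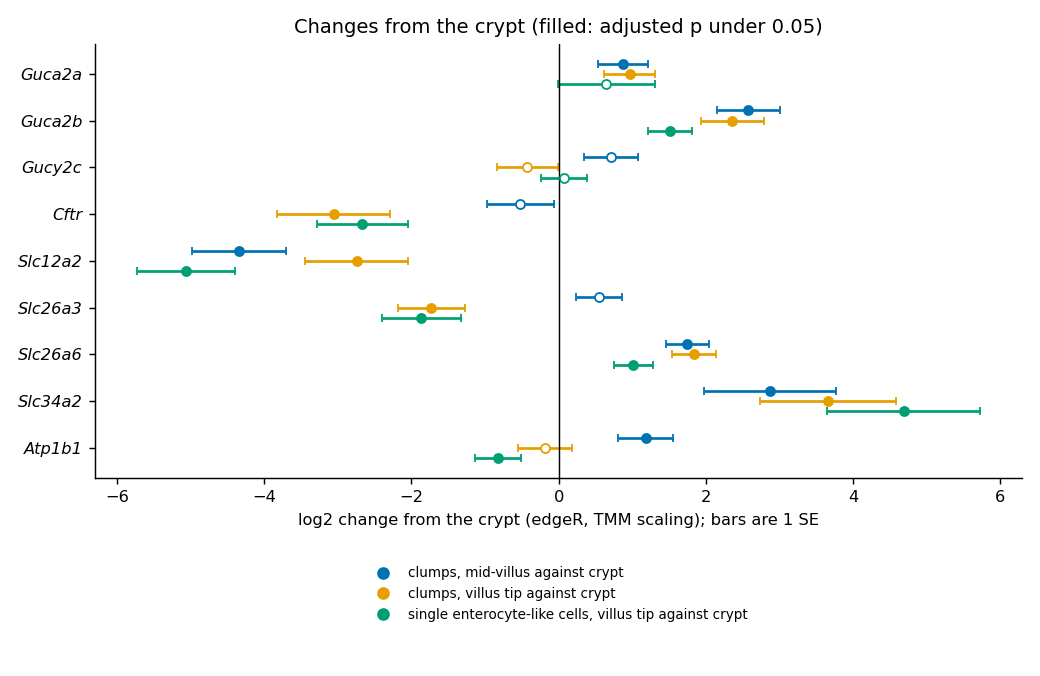
Log2 change from the crypt for 9 genes of the set, in clumps (mid-villus and tip) and in single enterocyte-like cells (tip), with bars of 1 SE and filled points where adjusted p was under 0.05. Guca2b, Slc26a6 and Slc34a2 lay to the right of 0 in all 3 comparisons and Slc12a2 to the left.

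Between cell types, Slc26a6 and Slc34a2 were lower in goblet-like than in enterocyte-like cells. Slc26a6 was 122, 151, 123 and 168 CPM in enterocyte-like cells of mice 1 to 4 and 9.76, 6.10, 9.98 and 0 CPM in goblet-like cells, with 1, 1, 2 and 0 UMIs. Slc34a2 was 287, 180, 27.6 and 396 CPM in enterocyte-like cells and had 2, 0, 1 and 0 UMIs in goblet-like cells. The groups did not overlap for either gene. Per UMI of the pooled sums, enterocyte-like cells held 17.0-fold more Slc26a6 (95% exact counting interval 6.63 to 62.6) and 36.5-fold more Slc34a2 (12.5 to 177), the latter being 76.2-fold (13.7 to 3014) without mouse 1. Both were called lower in goblet-like cells, with adjusted p = 7.43e-05 and 0.000102. Slc9a3 had 0 UMIs in goblet-like cells and 100 in enterocyte-like cells, at least 2.153-fold lower if the goblet-like cells are given the 3 UMIs that a count of 0 allows, and 1.065-fold without mouse 1.

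Atp1b1 was present in every epithelial type and highest in tuft-like cells, at 1046, 1083 and 925 CPM in mice 1 to 3. Enterocyte-like cells held 191, 749, 852 and 578 CPM, enteroendocrine-like cells 195, 354, 486 and 443 CPM and goblet-like cells 137, 396, 324 and 467 CPM. The tuft-like values lay above all of these, and the other types overlapped. Goblet-like cells were lower than enterocyte-like cells by 1.77 ± 0.62 (log2, SE) with adjusted p = 0.0360, a call lost with DESeq2 (0.137), with library size scaling (0.376), with DESeq2 size factors (0.152), without a filter on low counts (0.109), without the plates labelled CD24 (0.182) and without mouse 2, 3 or 4. Cftr had 1 UMI and Slc26a3 1 UMI over all goblet-like cells, and neither was tested. Slc12a2 had 1, 2, 11 and 0 UMIs in goblet-like cells, with a difference of 0.73 ± 0.65 and adjusted p = 0.522. With cell types set by marker sums that difference was 3.17 and passed (adjusted p = 0.000862).

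Other genes of the pathway were taken from a list of 46, of which 44 were in each table and 33 were tested in the clumps. From crypt to tip 11 rose and 7 fell, beside 22.4% of all genes higher and 30.3% lower. Rises did not outnumber falls under some alternatives, with 7 up and 9 down by DESeq2 and by library size scaling, 8 and 9 with DESeq2 size factors, 7 and 7 without a filter, and 4 and 6 in pairs alone. The apical exchangers and channels had 6 of 9 higher and none lower, with a median change of 1.24, where the median of all genes was -0.15. The largest rises were those of Aqp7 and Aqp3, which encode channels for water and glycerol, and of Ptger4, a prostaglandin E2 receptor gene. Aqp7 changed by 6.73 ± 0.61, from 8 UMIs in all crypt clumps to 58 at the tip, Aqp3 by 4.03 ± 0.62 and Ptger4 by 3.85 ± 0.48.

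The basolateral genes had 1 of 10 higher and 4 lower, where 22.4% and 30.3% of all genes were, with a median change of -0.52. The largest falls were those of potassium channel genes that set the driving force for chloride secretion. Kcnn4 changed by -3.37 ± 1.12, with 1290 UMIs in the crypt and 3 at the tip, a 25.9-fold higher crypt rate (95% exact counting interval 8.84 to 126). That pooled fold was 11.5 (3.11 to 96.1) without mouse 4, which held most of the crypt UMIs, 13.6 without mouse 3 and 59.6 without mouse 2. Kcne3 changed by -3.14 ± 0.80 and Kcnq1 by -2.70 ± 0.69, and both were also lower in the mid-villus. The signalling genes had 1 higher and 2 lower of 8 tested, and the scaffolds and carbonic anhydrases 3 higher and 1 lower of 6. The same shares of all genes, 22.4% higher and 30.3% lower, stand beside these counts.

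From crypt to mid-villus 14 of the list rose and 7 fell, beside 16.3% and 23.5% of all genes (4 and 2 of 20 in pairs alone), and from mid-villus to tip 3 rose and 4 fell, beside 5.71% and 6.17% of all genes, or 5 and 6 with the mouse as a block. In enterocyte-like cells 6 rose and 4 fell of 24 tested, where 29.5% and 29.9% of all genes did. Under library size scaling 4 rose and 7 fell, with the median change of all genes at -0.86. In goblet-like against enterocyte-like cells 1 was higher and 9 were lower of 19 tested, where 6.06% and 15% of all genes were, and 5 were lower with DESeq2 and 2 of 10 without mouse 2. Fxyd3, a regulator of the sodium pump, was higher by 5.25 ± 0.69, with 85 to 289 CPM in goblet-like and 0.54 to 3.11 CPM in enterocyte-like cells. Prkg2, the cGMP-dependent kinase gene downstream of guanylate cyclase C, had 0 UMIs in goblet-like cells and 354 in enterocyte-like cells, at least 7.62-fold lower with the same 3 UMIs, and 4.11-fold without mouse 3. Clcn2, a chloride channel gene, had 1 and 546 UMIs. In goblet-rich against goblet-poor clumps none of 9 passed with edgeR or DESeq2, 2 had an unadjusted p under 0.05 with either tool, and 1 was called lower with the mouse as a block.

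Over the 15 sums of mouse and zone in the clumps, and among 7445 genes, landmarks included, the likeness of patterns was measured by the Pearson correlation of log2(CPM + 5). It is given as a description, since sums of the same mouse are not independent. Guca2b was most like Cyp4v3 (0.99) and Agmo (0.99). Guca2a was most like Pklr (0.91), Nfkbia (0.90) and Slc26a2 (0.88), and Gucy2c most like Tvp23b (0.95), Emc10 (0.94) and Serp1 (0.94). Within the set, the closest partner of Guca2b was Slc26a6 (0.92), that of Guca2a Slc34a2 (0.70) and that of Gucy2c Cftr (0.71).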

How the data were processed

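The authors deposited UMI counts per gene and well, whole numbers that were neither normalized nor filtered, in a table of clumps and a table of single cells of mouse jejunum. Per the labels, reads were demultiplexed with bcl2fastq 2.15.0.4, and the gene models were those of GRCm38. Totals were 38454111 UMIs in 17162 wells of clumps and 39137313 UMIs in 16850 wells of cells, and all wells matched a labelled plate.

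Clumps were kept if they had 200 or more genes, no more than 30% of UMIs from mitochondrial genes and a total over 500 UMIs, the 2% lowest in landmark UMIs were dropped, and the zone was the landmark list (70 genes, left out of all tests) whose indicator correlated best. Cells (200 to 7000 UMIs, 150 to 1500 genes, at most 40% mitochondrial UMIs) were clustered with scanpy 1.11.5 and igraph 0.11.9 without the genes of the set and the pathway list, and clusters were named from fixed markers. Background was not subtracted in the main tests, because no file marks which wells were empty.

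Counts were summed per mouse and group (at least 5 clumps or cells) and tested with edgeR 4.0.16 (quasi-likelihood, TMM, Benjamini-Hochberg over all genes tested, threshold 0.05), with DESeq2 1.42.0 as an alternative. SE is the log2 change divided by the root of F. The mouse is the replicate. Groups of 1 number come from the same animal within a table, as the labels number the mice, and after removal of the group means their correlations were 0.17 to 0.541 between clump zones, 0.108 to 0.555 between enterocyte zones and 0.088 to 0.512 between goblet-like and enterocyte-like sums, so the mouse as a block was an alternative throughout. Whether the plates of mouse 2 labelled 4 months come from the animal of the others was not stated.

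Tests were tried on simulated counts. For tip against crypt clumps, over 6829 genes, 86.2% of 80 genes changed by 2 on the log2 scale were recovered and 15.8% of 101 changed by 1, with 0 false calls. For goblet-like against enterocyte-like cells the shares were 54.5% and 5.49%, with 1 false call. For tip against crypt enterocyte-like cells they were 81.2% and 11.5%, with 2 false calls. The simulation gave all genes the same spread and held no effect of the mouse. All genes of the set are named. From the pathway list, the 3 largest called changes each way between tip and crypt and the 2 largest each way between goblet-like and enterocyte-like cells are named, and for the ligands and the receptor the 3 genes most alike in pattern, of which 1 is not reported here. In the goblet comparison only 1 gene of the list was higher. The ratio of the ligands was tested by exact permutation, and the exchange within mice was added after seeing the data. The set, the lists and the tests were chosen with earlier results of these data known.

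Alternatives were DESeq2, its size factors, library size scaling (chosen after seeing the data), no filter on low counts, leaving out each mouse (from the pooled folds, likewise chosen after seeing the data), the plates labelled 4 months (likewise added) or those labelled CD24, pairs only, clumps over 1000 UMIs, another zone rule, background subtraction from the emptiest wells, adding mouse 6, no Paneth or goblet clumps, other goblet thresholds and cell types by marker sums. Their effects follow at the end.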

Additional observations from a re-analysis of the deposited data

Results flagged for a closer look

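In 3 of 57 groups of 4 or 5 samples, 1 mouse stood apart from the others by Dixon's criterion, and chance flags about 1 in 20 groups. Cftr in crypt clumps was 70.1 CPM in mouse 4, the nearest mouse having 43.4 CPM. Cftr in enterocyte-like tip cells was 17.0 CPM in mouse 3, the nearest having 3.69 CPM, on 8 and 2 UMIs. Slc9a3 in enterocyte-like mid-villus cells was 34.7 CPM in mouse 1, the nearest having 10.5 CPM.

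Clumps labelled above 2n from mouse 6 entered no main comparison. Guca2a there was 216 CPM in the crypt, 106 CPM in the mid-villus and 112 CPM at the tip. Guca2b was 246 CPM in the crypt, 1344 CPM in the mid-villus and 471 CPM at the tip. Guca2b was thus again highest in the mid-villus, whereas Guca2a was highest in the crypt, which differs from mice 1 to 5. This is a single mouse, and no test was made.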

How the results depend on the processing

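Of the log2 changes of the set under all alternatives, 562 kept their direction and side of the threshold, 51 fell below it, 15 passed it and 19 turned. Of the counts of calls, 85 stayed within 1.5 times and 7 moved. In pairs only, 4 genes of the set were called for tip against crypt (7 in the main test) and 2 for mid-villus against crypt (6). For tip against mid-villus (3), the count was 5 with the mouse as a block, 0 with zones by z-scored landmarks and 1 to 2 when a mouse was left out, being 1 without mouse 1 or mouse 3. In goblet-rich against goblet-poor clumps (1), the block gave 4, with Guca2b at -0.67. The paired fit moved the count of the set by over 1.5 times in no other comparison, while the pathway list went from 7 to 11 calls and all genes higher from 421 to 937 and lower from 455 to 1044 for tip against mid-villus, all genes higher from 1204 to 1835 for mid-villus against crypt, and all genes from 34 higher and 2 lower to 56 and 52 for goblet-rich clumps. The log2 ratio difference was -1.78 to -1.24 when a mouse was left out, -0.78 without Paneth or goblet clumps and -1.26 in pairs with 1 UMI added (exact permutation p = 0.103 for each), -1.60 after background subtraction, and -1.59 with the mouse as a block, where the exact permutation p of 0.0625 is the smallest possible.

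Changes of sign with zones by z-scored landmarks were those of Slc26a3 (0.14), Atp1b1 (0.42) and Gucy2c (0.21) for tip against crypt, and in pairs those of Slc26a3 (-0.081) and Guca2a (-0.033) for mid-villus against crypt. For tip against mid-villus, Guca2a was -0.085 under library size scaling, -0.052 without a filter, -0.016 to 0.22 when a mouse was left out, the lowest without mouse 3, -0.014 above 1000 UMIs and -0.23 with z-scored zones. Slc26a6 was -0.084, -0.053, -0.073 and -0.0098 under library size scaling, no filter, over 1000 UMIs and z-scored zones. In enterocyte-like cells Guca2a was -0.24 under library size scaling, and Gucy2c was -0.081 with DESeq2, -0.079 with size factors, -0.88 with library size scaling (adjusted p = 0.0491) and -0.049 to 0.37 when a mouse was left out, the lowest without mouse 4. The cause of these changes was not tested. In clumps the tip sums of Cftr and Slc12a2 held few UMIs, and so did the crypt and tip sums of Slc9a3.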
